A study of Saccharomyces cerevisiae with 12 samples.

Results

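Polysomal mRNA was set against total mRNA in the yeast strain ΔES27Lb, whose ribosomes lack the b-arm of the rRNA expansion segment ES27L. The 3 ΔES27Lb libraries labelled as polysome associated mRNA and the 3 labelled as total mRNA were chosen by their titles. These are 6 of the 12 libraries of the series, joined by replicate number into 3 pairs, called cultures here. The labels do not say that libraries of equal number came from 1 culture. The 6 other libraries are the same pools of the wildtype (WT) and serve as a comparison here. They also entered the same model, so they bear on the filter, the scaling and the estimate of spread behind the ΔES27Lb calls. Both strains are Saccharomyces cerevisiae of the yJD1045 background, in which the chromosomal rDNA repeats are deleted and all rRNA of the large transcript comes from a plasmid with a tetracycline-repressible promoter, a hygromycin resistance mutation in the 18S rRNA and a URA3 marker. The plasmid carries either the shortened ES27L (ΔES27Lb) or the intact sequence (WT), so the controls share the deletion and the plasmid system. Cells were grown in YPD to an optical density of 0.8, without reductive stress, and lysed in the presence of cycloheximide. The study's methods add hygromycin B to the YPD for general growth and for RNA extraction, but name YPD alone for polysome cultures. Whether the medium of the polysomal and total pools differed is therefore unclear, and an effect of the drug on P/T (polysomal over total level) was not tested. Polysomal RNA was pooled from the polysome fractions of a sucrose gradient, and both pools were enriched for poly(A) RNA before sequencing. Whether replicates came from separate clones is not stated in the sources used here, so the p-values measure the spread between these cultures.

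A translated mRNA usually carries several ribosomes and then sediments with polysomes, whereas an mRNA that is repressed, stored, nuclear or freshly made sediments with free particles or with single ribosomes. Dividing the polysomal by the total level of a gene (P/T) therefore orders mRNAs by how much of each is recovered with several ribosomes. Polysomes came from lysates cleared by centrifugation, in a buffer for which the study's methods list no detergent. RNA lost at that step but kept in the total pool would also have a low P/T, which was not tested. Each pool is scaled to its own total, so the ratio is relative to the average mRNA, and a shift shared by all mRNAs cannot be seen. Because the pooled fractions start above a minimum number of ribosomes, mRNAs with very short coding sequences can be translated and still be sparse among them. The expansion segment ES27L lies near the exit of the peptide tunnel of the large subunit, where enzymes and chaperones meet nascent proteins, and for this reason those factors and their mRNAs are described below.

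P/T is given as log2 P/T, positive where a gene was higher in polysomal than in total mRNA, and levels are CPM (counts scaled to the same total in each library), adjusted by the trimmed mean of M-values (TMM). The polysomal libraries held between 16710959 and 18604853 counts and the total libraries between 15050764 and 18878243, so that for most genes the spread between cultures, not counting error, set the precision. Of 7126 IDs, 6003 passed a filter on low counts and were tested, 5689 of them protein-coding in RefSeq. The summed level of small nuclear and nucleolar RNAs and their kin, which are not translated, was 108, 85.3 and 97.7 CPM of all counts in the polysomal libraries of cultures 1 to 3, against 461, 353 and 392 CPM in their total libraries. The ranges were far apart in all 3 cultures, in the direction the labels name. RNA encoded by the mitochondrial genome summed to 14.7, 2.69 and 5.37 CPM in the polysomal libraries and to 17.1, 87.9 and 93.0 CPM in the total libraries. Culture 1 stood apart here, because its total library held as little mitochondrial RNA as a polysomal library. The part of this culture in the results below was not tested beyond the values given for each culture and the calls made without it. The 25S rRNA features held no counts in any library, so the labelled deletion could not be checked.

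**Figure D1:**
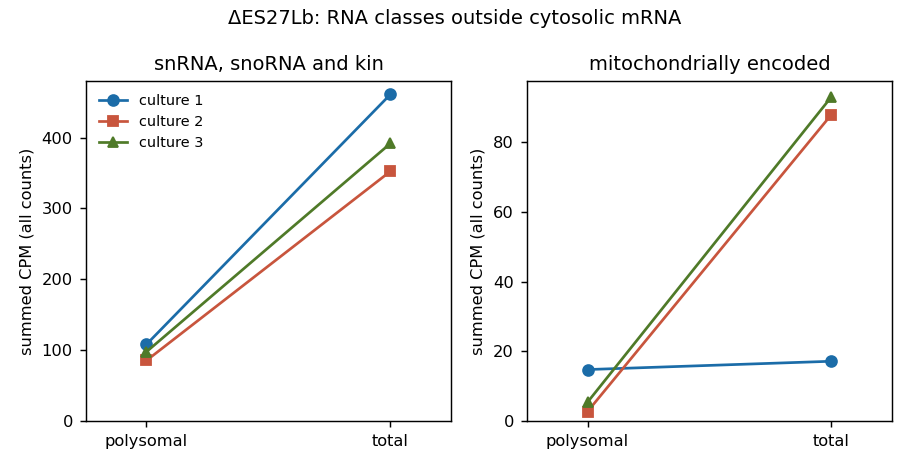
Summed CPM of all counts (vertical axes) for small nuclear and nucleolar RNAs with the telomerase, RNase P, RNase MRP and SRP RNAs (left) and for mitochondrially encoded genes (right), in polysomal and total libraries of ΔES27Lb. Each line joins the 2 libraries of a culture. The small RNAs lie between 85.3 and 108 CPM in polysomal and between 353 and 461 CPM in total libraries, and the mitochondrial RNA of culture 1 hardly differs between the pools.

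In ΔES27Lb, 418 of 6003 genes were called at an adjusted p of 0.05 in a model with the culture as a block (edgeR's quasi-likelihood test). Of these, 173 genes (2.88%) were higher in polysomal mRNA and 245 (4.08%) were lower, all 418 with the same sign in 3 of 3 cultures. All 173 higher genes were protein-coding, whereas the lower genes comprised 193 protein-coding genes, 27 snoRNAs, 12 tRNA features, 9 IDs without a RefSeq match and 4 other RNAs or pseudogenes. Changes were small, with a log2 P/T beyond 1 in either direction for 119 of the called genes and a median of -0.06 (SD 0.56) over all genes tested. Genes whose polysomal values all lay above their total values made up 9.43% of those tested, and genes with all polysomal values below made up 12.6%.

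These calls lay close to the threshold, with adjusted p-values no smaller than 0.033. Without the block no gene was called (smallest adjusted p = 0.0653, with 898 genes at an unadjusted p of 0.05 or less, against 2024 with the block), and DESeq2 called 1121 genes with the block and 94 without it. Any smaller set of cultures moved the count: leaving out ΔES27Lb culture 1, 2 or 3 left 2, 0 and 0 calls, leaving out WT culture 2 or 3, which shared the estimate of spread, left 22 and 15 calls, and leaving out WT culture 1 gave 1706 calls. The sign of log2 P/T was kept for all 418 genes in each of these fits. These genes already had the same sign in 3 of 3 cultures, so the fits could hardly change it. The kept sign is no independent evidence of direction. The balance of directions rested on the scaling, since 41.4% of the calls were higher with TMM, 56.4% with the size factors of DESeq2 and 1.3% with library size alone, which moved the median of all genes to -0.35.

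**Figure D2:**
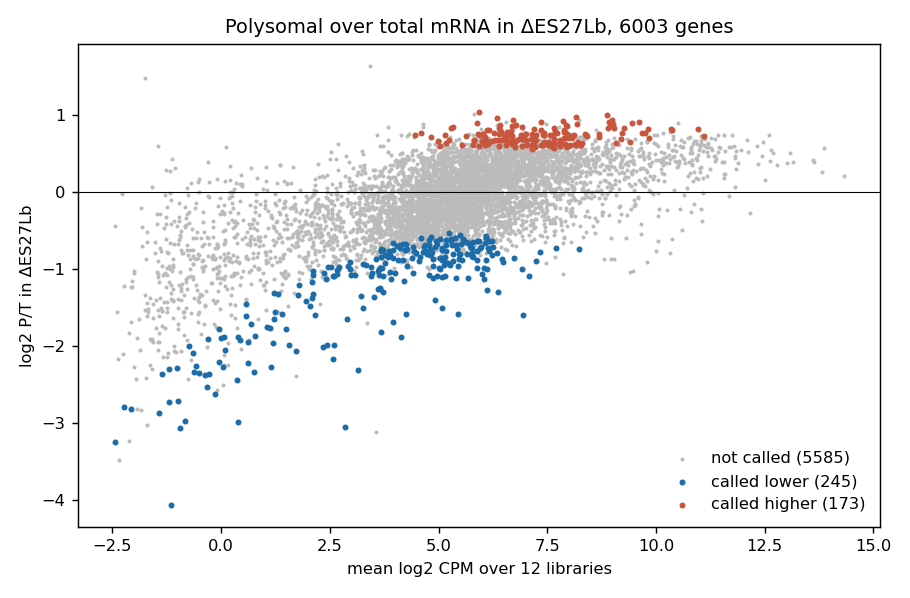
Log2 P/T in ΔES27Lb (vertical axis) against the mean log2 CPM over the 12 libraries (horizontal axis) for 6003 genes, with 245 genes called lower in blue and 173 called higher in red. Higher calls lie between log2 P/T of about 0.5 and 1 at medium and high levels, and lower calls spread down to below -3 at low levels.

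Level and ratio moved together. Among genes with a mean log2 CPM under 3, none of 851 was called higher and 80 were called lower (median log2 P/T -0.71), whereas among genes at 9 or more 17 of 304 were called higher and none lower (median 0.42). Across genes, Spearman's rho between level and P/T was 0.476, 0.511 and 0.458 in cultures 1 to 3, a description that shares the counts on both axes. The 3 cultures ordered genes in a partly shared way, with Pearson's r of P/T across genes of 0.444 between cultures 1 and 2, 0.521 between 1 and 3 and 0.450 between 2 and 3.

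The protein-coding genes with the highest and the lowest log2 P/T among those called, at a mean log2 CPM of at least 3, are shown with the sequence around their start codons, because the bases before an AUG and the presence of other AUGs upstream bear on initiation in yeast. The 12 bases before the start codon, the start codon in capitals and the 3 bases after it are DNA of RefSeq R64 (strain S288C).
MDG1: agtgtttctagaATGcaa
LSP1: tccaacacaagaATGcac
PNC1: tacagtacaaaaATGaag
MRPL28: cgaagataacacATGctg
REA1: aatctgctgagaATGtcc
OST4: agcaagcaaaagATGatc
YLR146W-A: ctcgaagtagccATGgac
IRA2: tcagggagaagcATGtcc
MDG1, LSP1, PNC1 and MRPL28 were the 4 highest and REA1, OST4, YLR146W-A and IRA2 the 4 lowest. An A at position -3, the base favoured in yeast, stood before 3 of the 4 highest and 3 of the 4 lowest, and none of the 8 had an ATG in the 50 bases before the start codon. Among all called genes, an A at -3 was found in 73.99% of the 173 higher genes, 56.54% of 191 lower genes with a RefSeq context and 61.41% of the 5685 tested. An ATG in the 50 bases upstream was found in 10.4% of higher, 22.51% of lower and 18.52% of tested genes. The medians of these classes lay close together, at 0.02 with and -0.10 without an A at -3, and at -0.15 with and -0.01 without an upstream ATG.

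**Figure D3:**
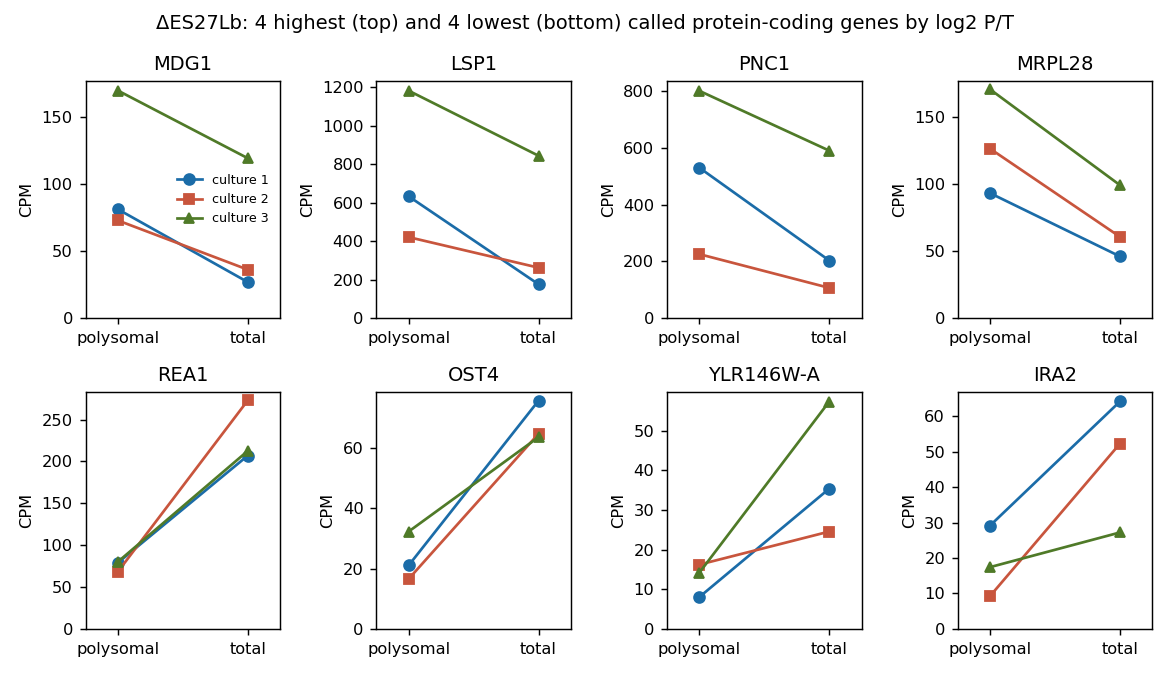
TMM-scaled CPM (vertical axes, from 0) of the 4 highest (top) and 4 lowest (bottom) called protein-coding genes by log2 P/T, at a mean log2 CPM of at least 3, in the polysomal and the total library of each ΔES27Lb culture. In every culture the polysomal value lies above the total value in the top row and below it in the bottom row, while the level of a culture can differ more than its pools do, as for LSP1 in culture 3.

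MDG1, a membrane-associated protein linked to pheromone signalling, had the highest ratio of the called genes at a mean log2 CPM of at least 3. It had 81.2, 72.8 and 169.6 CPM in the polysomal libraries of cultures 1 to 3, against 26.9, 36.2 and 119 CPM in their total libraries. Culture 3 held more MDG1 in both pools than the others, so that the pools overlapped although each culture had the higher value in its polysomal library, with a log2 P/T of 1.03 ± 0.21 (SE, adjusted p = 0.0451). LSP1, a core component of eisosomes, had 634, 422 and 1183 polysomal CPM against 176, 263 and 845 total CPM, and a log2 P/T of 1.0 ± 0.25 (SE, adjusted p = 0.0461). PNC1, the nicotinamidase that feeds NAD+ salvage, had 530.1, 226 and 801 polysomal CPM against 203, 107 and 590.3 total CPM, and a log2 P/T of 0.97 ± 0.21 (SE, adjusted p = 0.0451). In both genes the total library of culture 3 exceeded polysomal libraries of other cultures, while the ratio had the same sign in 3 of 3 cultures.

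The other 8 of the 12 highest of these genes have mixed roles. They were RFS1, a flavodoxin-like protein of eisosomes (log2 P/T 0.93), MBF1, a transcriptional coactivator (0.93), HHO1, the linker histone (0.91), ILV6, the regulatory subunit of acetolactate synthase (0.91), DID2, a subunit of the endosomal sorting machinery (0.91), VMA4, a subunit of the vacuolar proton pump (0.91), COX5A, a subunit of cytochrome c oxidase (0.90), and YHI9 (0.90). DID2 had 179, 247 and 293 CPM in the polysomal libraries of cultures 1 to 3, against 103, 109.6 and 174 CPM in their total libraries. Its polysomal values all lay above the total values, as did those of YHI9 (87.8, 82.8 and 105 polysomal CPM against 46.0, 48.5 and 53.2 total CPM) and ILV6.

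REA1, also called MDN1, encodes the giant AAA-type ATPase that remodels pre-60S particles, and it was the lowest of the called protein-coding genes at a mean log2 CPM of at least 3. It had 79.1, 68.5 and 80.2 CPM in the polysomal libraries of cultures 1 to 3, against 207, 273 and 213 CPM in their total libraries. The pools were far apart in every culture, with a log2 P/T of -1.6 ± 0.23 (SE, adjusted p = 0.033). IRA2, a GTPase-activating protein of Ras, had 29.2, 9.29 and 17.4 polysomal CPM against 64.2, 52.3 and 27.2 total CPM, a log2 P/T of -1.40 ± 0.31 (SE, adjusted p = 0.0451). The total value of culture 3 lay below the polysomal value of culture 1, so the pools of IRA2 overlapped.

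UTP20, a component of the small subunit processome, had 59.1, 51.4 and 43.0 polysomal CPM against 145, 173 and 78.8 total CPM (log2 P/T -1.31 ± 0.24 SE, adjusted p = 0.045). SCC2, the loader of cohesin, had 9.69, 7.08 and 4.11 polysomal CPM against 18.1, 21 and 10.6 total CPM (log2 P/T -1.27 ± 0.20 SE, adjusted p = 0.033). Both pools of both genes were lowest in culture 3, and the pools did not overlap for UTP20 or SCC2. YDR261C-D, a Gag-Pol reading frame of a Ty1 element, had a log2 P/T of -1.3, and YBR184W, of unknown role, had -1.25. Ty elements are multi-copy and their frames overlap, so the counts of single copies are uncertain. The 45 tested genes with a Gag or Gag-Pol product included 10 called lower, against 4.08% of all genes, and none higher, with a median of -0.85 (-0.85, -1.40 and -0.27 in cultures 1 to 3).

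Among the 28 tested genes of a list of very long coding sequences, 18 were called lower and none higher, against 4.08% of all genes. The median log2 P/T was -0.86, with medians of -0.60, -1.19 and -0.74 in cultures 1 to 3, and no member had a positive value. Besides REA1, IRA2 and UTP20, the called genes included TRA1, the scaffold of the SAGA and NuA4 complexes (-1.12), DYN1, the dynein heavy chain (-1.08), the ubiquitin ligases TOM1 (-1.13) and UBR1 (-0.67), the kinases TOR1 (-0.77) and TOR2 (-0.88), and the spliceosome components PRP8 (-0.77) and BRR2 (-0.95). The long metabolic enzymes were nearer to 0 and were not called. These were FAS1 and FAS2 of fatty acid synthase (log2 P/T -0.60 and -0.55), ACC1, acetyl-CoA carboxylase (-0.54), and URA2 of pyrimidine synthesis (-0.53).

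Over all coding sequences, the fitted P/T was highest for lengths from 500 to under 1000 nucleotides and declined with length from there. Of 1425 genes in this class 129 were called higher and 10 lower, against 2.88% and 4.08% of all genes (median 0.29). Of 2172 genes from 1000 to under 2000 nucleotides 26 were higher and 32 lower (median 0.00). Of 800 genes from 2000 to under 3000 nucleotides none was higher and 30 were lower (median -0.25), and of 516 genes of 3000 or more none was higher and 96 were lower (median -0.55). The median coding length was 750 nucleotides among higher genes, 3033 among lower genes and 1236 among all genes with a RefSeq context, and the 173 higher genes ranged only from 336 to 1305. All 3 cultures showed the decline to different extents, with medians for the longest class of -0.36, -0.81 and -0.40 and a Spearman's rho between length and P/T across genes of -0.151, -0.571 and -0.364 in cultures 1 to 3.

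**Figure D4:**
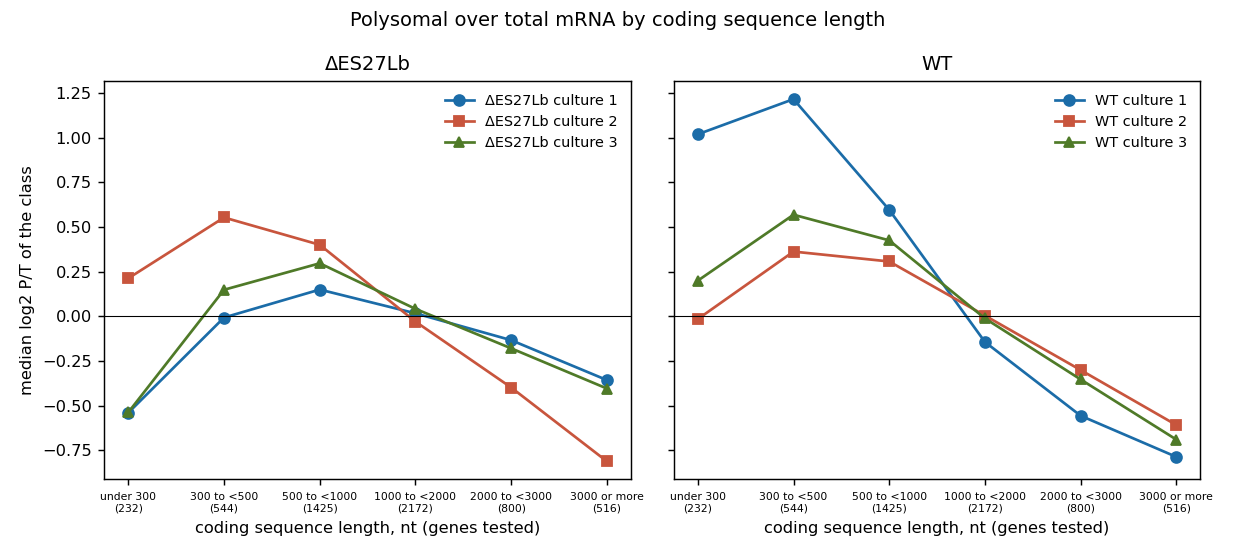
Median log2 P/T (vertical axis) of genes in 6 classes of coding sequence length in nucleotides (horizontal axis, number of genes tested in brackets), for the 3 cultures of ΔES27Lb (left) and the 3 of WT (right). Medians for 3000 nucleotides or more lie between -0.36 and -0.81 in ΔES27Lb and between -0.61 and -0.79 in WT, and the cultures of each strain spread most in the 2 shortest classes.

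The shortest coding sequences had lower medians than the next class in all 3 cultures. A class under 300 nucleotides, which was chosen after short genes had been seen among the lowest, held 232 tested genes, of which 20 were called lower and none higher. Its median log2 P/T was -0.31 in the fit, with -0.54, 0.21 and -0.54 in cultures 1 to 3, so that culture 2 lay on the other side of 0. From 300 to under 500 nucleotides the median was 0.26, with 18 of 544 genes called higher and 5 lower.

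OST4, which encodes a tiny subunit of oligosaccharyltransferase with a coding sequence of 111 nucleotides, was the next after REA1 among the called protein-coding genes at this level. It had 21.1, 16.6 and 32.3 CPM in the polysomal libraries of cultures 1 to 3, against 75.7, 64.7 and 63.6 CPM in their total libraries. Each total value was more than any polysomal value, and the log2 P/T was -1.59 ± 0.28 (SE, adjusted p = 0.0417). YLR146W-A, a frame of 189 nucleotides, had 8.05, 16.2 and 14.2 polysomal CPM against 35.4, 24.6 and 57.3 total CPM (log2 P/T -1.59 ± 0.36 SE, adjusted p = 0.0457). MIN10 (264 nucleotides), YGL188C-A (141), CMI7 (210) and ERI1 (207), a subunit of the enzyme that starts glycosylphosphatidylinositol synthesis, followed with log2 P/T of -1.36, -1.35, -1.27 and -1.27. CMI7 had 36.5, 44.0 and 53.5 polysomal CPM against 98.1, 82.8 and 149 total CPM, and its pools did not overlap.

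Genes for predicted membrane proteins had lower medians than other genes of similar length. They were defined by 2 or more separate hydrophobic stretches (19 residues averaging 1.6 or more on the Kyte-Doolittle scale). Of 691 such genes 4 were called higher and 64 lower (median -0.43, with -0.30, -0.58 and -0.35 in cultures 1 to 3), and of 4994 others 169 were higher and 127 lower (median 0.03). The median was -0.16 for membrane proteins and 0.27 for others under 1000 nucleotides, -0.40 and 0.06 from 1000 to under 2000, and -0.57 and -0.33 at 2000 or more. Most mRNAs of such proteins are translated at the endoplasmic reticulum, and the recovery of membrane-bound polysomes in the cleared lysates was not tested.

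The transporter families shared this direction to differing degrees. All 20 tested ABC transporters had a log2 P/T below 0 (median -0.60) and 4 were called lower, against 4.08% of all genes, among them NFT1 (-1.10), AUS1, which takes up sterols (-0.99), and YCF1, the vacuolar glutathione conjugate pump (-0.88). YCF1 had 38.9, 23.4 and 31.5 polysomal CPM against 54.4, 56.8 and 57.7 total CPM, and each total value exceeded each polysomal value. Of 16 P-type ATPases 15 lay below 0 (median -0.65), and PCA1, a cadmium exporter (-0.80), and ENA5, a sodium pump with near-identical copies (-0.74), were called lower. Both families have long coding sequences, with medians of 4335 nucleotides for ABC transporters and 3489 for P-type ATPases. Among all genes of 3000 nucleotides or more the median was -0.55 and 18.6% were called lower, against 20.0% and 12.5% in these 2 families. The 14 hexose transporters and sensors had a median of -0.61 with no call and all values below 0, from -1.95 for HXT10 to -0.07 for the glucose sensor SNF3. Several hexose transporters are near-identical and share reads. The 27 amino acid permeases had a median of -0.35 with no call, from -1.08 for MUP3 to 0.33 for the proline permease PUT4.

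**Figure D5:**
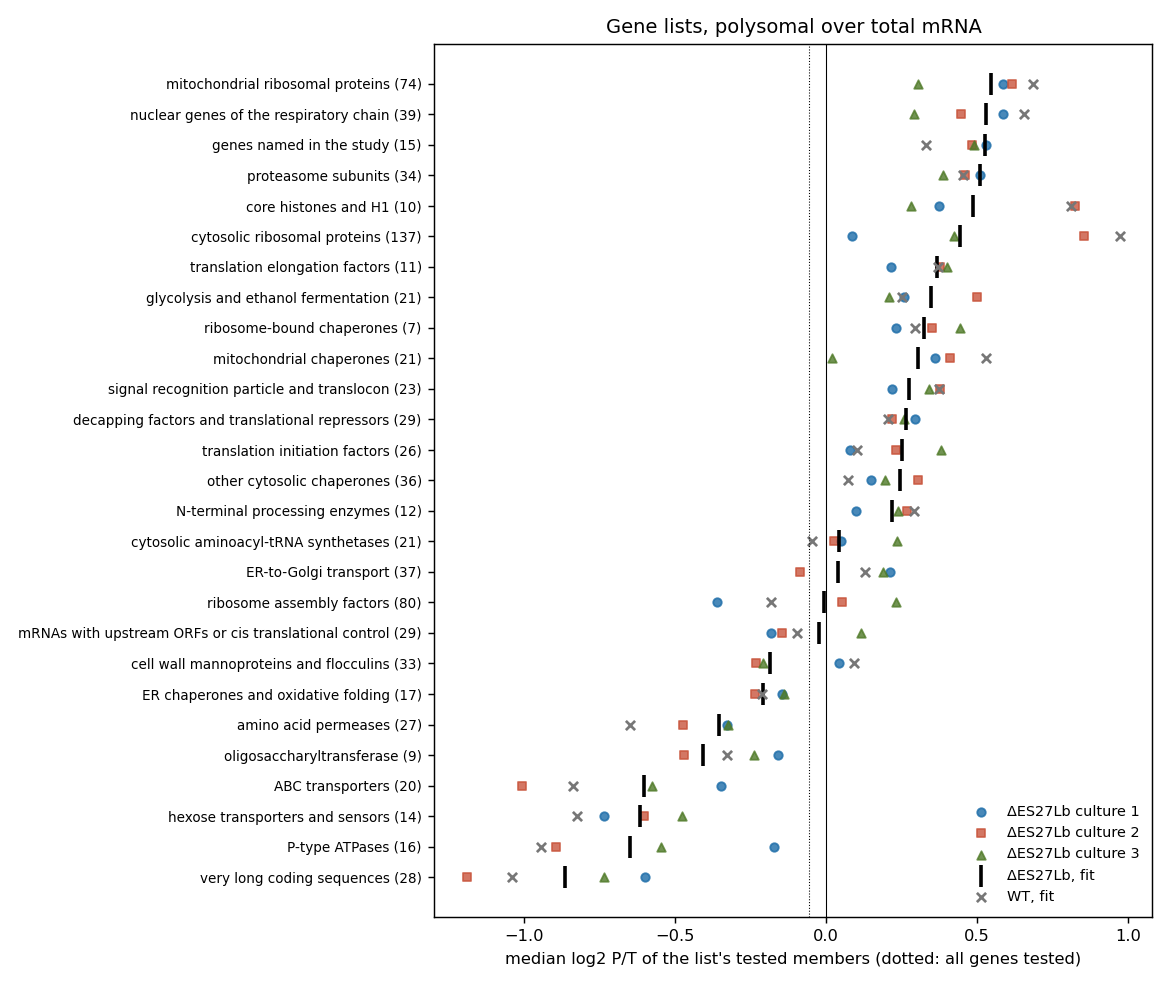
Median log2 P/T (horizontal axis) of 27 gene lists (those of mitochondrially encoded genes and small RNAs left out), number of tested members in brackets, in each ΔES27Lb culture (coloured symbols), in the ΔES27Lb fit (black bars) and in the WT fit (grey crosses); the dotted line marks the median of all genes in ΔES27Lb. Mitochondrial ribosomal proteins, at 0.54, stand at the top and very long coding sequences, at -0.86, at the bottom, and cytosolic ribosomal proteins spread from 0.09 in culture 1 to 0.85 in culture 2.

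Mitochondrial ribosomal proteins, which are made in the cytosol and imported, formed the list with the most genes called higher. Of 74 tested members 20 were called higher and none lower, against 2.88% of all genes, and all 74 had a log2 P/T above 0. The median was 0.54, with 0.59, 0.61 and 0.30 in cultures 1 to 3. MRPL28, a large subunit protein, had 93.5, 127 and 171 CPM in the polysomal libraries of cultures 1 to 3, against 46.2, 60.8 and 99.4 CPM in their total libraries, and a log2 P/T of 0.95 ± 0.22 (SE, adjusted p = 0.0457). The total value of culture 3 exceeded the polysomal value of culture 1. MRPL27 (0.85) and the small subunit protein RSM25 (0.79) came next, and RSM22, a methyltransferase-like protein with a longer coding sequence, was the lowest member (0.02, not called).

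Of 39 nuclear genes of the respiratory chain 4 were called higher, against 2.88% of all genes, and none lower, with a median of 0.53 (0.59, 0.45 and 0.29 in cultures 1 to 3). COX5A had 724, 1158 and 1267 polysomal CPM against 362, 566 and 803 total CPM (log2 P/T 0.90 ± 0.18 SE, adjusted p = 0.0451), and the cytochrome c oxidase subunits COX13 and COX4 had log2 P/T of 0.74 and 0.72. ATP15, the small epsilon subunit of the ATP synthase with a coding sequence of 189 nucleotides, was the lowest member and was not called. It had 125, 93.7 and 145 polysomal CPM against 229.7, 194 and 260.3 total CPM, a log2 P/T of -0.92 ± 0.25 (SE, adjusted p = 0.0534). Of 21 mitochondrial chaperones MGE1, the nucleotide exchange factor of the mitochondrial Hsp70, was called higher, against 2.88% of all genes (0.60 ± 0.15 SE, adjusted p = 0.0461).

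Of 34 proteasome genes 7 were called higher, against 2.88% of all genes, and none lower (median 0.51, with 0.51, 0.46 and 0.39 in cultures 1 to 3). The called genes were the core particle subunits PRE2 (log2 P/T 0.73), PRE4 (0.72), PUP1 (0.70), PRE9 (0.65), PRE10 (0.62) and PRE7 (0.59) and the lid subunit RPN6 (0.61). PRE4 had 359, 341 and 408 polysomal CPM against 222, 191 and 263 total CPM, and the pools did not overlap. The long subunits RPN2 and RPN1 were the only 2 members below 0, at -0.26 and -0.12, and neither was called.

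The mRNAs of cytosolic ribosomal proteins, an abundant class, differed more between cultures than mitochondrial ribosomal proteins, respiratory chain or proteasome genes did. Of 137 tested genes 1 was called higher and none lower, 114 had a log2 P/T above 0, and the median was 0.44, with 0.09, 0.85 and 0.42 in cultures 1 to 3. The called gene was RPS8A, which shares sequence with RPS8B, with 1949, 3559.9 and 4553 polysomal CPM against 1455, 1779.8 and 2733 total CPM. The total value of culture 3 exceeded the polysomal value of culture 1, and the log2 P/T was 0.72 ± 0.19 (SE, adjusted p = 0.0498). RPL7A was the highest member (0.74 ± 0.21 SE, adjusted p = 0.0563, not called) and RPL41B, with a coding sequence of 78 nucleotides, the lowest. RPL41B had 346, 821 and 623 polysomal CPM against 923, 823 and 1988 total CPM (log2 P/T -1.04 ± 0.39 SE, adjusted p = 0.0965), so that cultures 1 and 3 were lower in polysomal mRNA and culture 2 was nearly equal in both pools.

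Ribosome assembly factors and initiation factors were called in shares near those of all genes. Of 80 ribosome assembly factors none was called higher and 4 lower, against 2.88% and 4.08% of all genes, with a median of -0.01 and cultures at -0.36, 0.05 and 0.23. The lowest were the long genes REA1, UTP20 and UTP10 (-1.09), a processome component, and NHP2, a small snoRNP protein, was the highest (0.61, not called). Of 26 initiation factors HCR1, a subunit associated with eIF3, was called higher against 2.88% of all genes (0.71 ± 0.17 SE, adjusted p = 0.0461), and of 11 elongation factors CAM1, an eEF1B gamma subunit (0.75 ± 0.18 SE, adjusted p = 0.0461). No gene of 21 cytosolic aminoacyl-tRNA synthetases was called in either direction (median 0.04). Of 10 histone genes HHO1 was called higher, against 2.88% of all genes, and of 21 glycolytic and fermentation genes none was called (median 0.35, PGK1 highest at 0.59).

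The enzymes that process nascent N-termini, which work at the exit of the peptide tunnel, were examined gene by gene. Of 12 tested genes 2 were called higher, against 2.88% of all genes, and none lower (median 0.22). ARD1, the catalytic subunit of the N-terminal acetyltransferase NatA, had 136, 174 and 178 CPM in the polysomal libraries of cultures 1 to 3, against 82.0, 95.3 and 129.8 CPM in their total libraries, with a log2 P/T of 0.69 ± 0.17 (SE, adjusted p = 0.0461) and no overlap of the pools. MAP2, a methionine aminopeptidase, had 182, 245 and 271 polysomal CPM against 122, 138 and 193 total CPM, with a log2 P/T of 0.63 ± 0.15 (SE, adjusted p = 0.0461), and the total value of culture 3 exceeded the polysomal value of culture 1. The auxiliary subunits of the acetyltransferases, which have long coding sequences, had values below 0 without a call, at -0.22 for NAT1 of NatA, -0.31 for MDM20 of NatB and -0.42 for MAK10 of NatC. The catalytic subunits NAT3 of NatB (0.48) and MAK3 of NatC (0.48), the second methionine aminopeptidase MAP1 (0.35), NAT5 (0.24) and the myristoyltransferase NMT1 (0.19) had positive values and were not called. MAK31, a small subunit of NatC, was lowest (-0.58), and NAT4, which acetylates histones, had -0.19. Neither was called.

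Seen from the substrates, genes grouped by the second residue of the protein had medians close together. The median was 0.03 over 3002 genes with a second residue of the NatA type (A, C, G, S, T or V), -0.15 over 998 of the NatB type (D, E, N or Q) and -0.06 over 1685 others. NatA-type residues made up 61.85% of higher, 45.55% of lower and 52.81% of all genes, and NatB-type residues 10.4%, 23.56% and 17.55%. Length and membrane class were not held constant in these shares.

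Of 29 decapping factors and translational repressors 4 were called higher, against 2.88% of all genes, and none lower (median 0.26, with 0.29, 0.22 and 0.26 in cultures 1 to 3). SBP1, an RNA-binding protein that binds eIF4G and acts in decapping, had 552, 528 and 1011 CPM in the polysomal libraries of cultures 1 to 3, against 290.3, 337 and 515 CPM in their total libraries, with a log2 P/T of 0.85 ± 0.19 (SE, adjusted p = 0.0457). SCD6, a repressor that also binds eIF4G, had 169, 192 and 300.2 polysomal CPM against 104, 112 and 151 total CPM, with a log2 P/T of 0.82 ± 0.15 (SE, adjusted p = 0.0433). Pools did not overlap for either gene. STM1, which binds ribosomes and can keep them inactive (0.81), and LSM1, a subunit of the Lsm ring in decapping (0.60), were the other called genes, and PUF3, which binds mRNAs for mitochondrial proteins, was the lowest (-0.55, not called).

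Factors that bring proteins to the endoplasmic reticulum included 4 genes called higher of 23, against 2.88% of all genes, and none lower (median 0.27). These were MDY2, also called GET5 (0.74), and GET2 (0.68), both of the pathway for tail-anchored proteins, GET3, the targeting ATPase of that pathway (0.60), and SEC65, a subunit of the signal recognition particle (0.73). SEC65 had 175, 232 and 334 polysomal CPM against 125, 131 and 181 total CPM (log2 P/T 0.73 ± 0.15 SE, adjusted p = 0.0451), and the total value of culture 3 exceeded the polysomal value of culture 1. SSH1, an alternative translocon channel with many membrane spans, was lowest (-0.54, not called). Of 37 genes of transport from the endoplasmic reticulum to the Golgi 3 were higher, namely YPT1, a Rab GTPase (0.76), SED5, a SNARE (0.62), and SEC13, a coat protein (0.61), and USO1, a long tether, was lower (-0.62). The shares were 8.11% higher and 2.7% lower, against 2.88% and 4.08% of all genes. Of 9 oligosaccharyltransferase genes only OST4 was called lower, against 4.08% of all genes, and none higher. All 9 lay below 0 (median -0.41). Of 17 chaperones and oxidases of the endoplasmic reticulum none was called, from -0.77 for LHS1 to 0.47 for HLJ1 (median -0.21).

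Chaperones that bind ribosomes, whose docking site lies near ES27L, all had a log2 P/T above 0 (7 genes, median 0.32). Only EGD2, the alpha subunit of the nascent polypeptide-associated complex, was called higher (0.80 ± 0.19 SE, adjusted p = 0.0461), against 2.88% of all genes. The list is abundant (median of the mean log2 CPM 9.83), and all genes at 9 or more had a median log2 P/T of 0.42, above that of the list. EGD2 had 1277, 1915 and 2921 polysomal CPM against 788, 1009 and 1717 total CPM, with overlapping pools. SSB1, the ribosome-bound Hsp70, was lowest of the 7 (0.18). Of 36 other cytosolic chaperones only SBA1, the Hsp90 co-chaperone, was called higher (0.83 ± 0.17 SE, adjusted p = 0.0451). This is 2.78% of the list, near the 2.88% of all genes. SSA3, a stress-induced Hsp70, had 70.6, 42.5 and 36.2 polysomal CPM against 265, 45.2 and 45.4 total CPM, so that the low log2 P/T of -0.77 (not called) rested on a total level in culture 1 well above those of cultures 2 and 3. Of 33 cell wall proteins only FLO5, a flocculin with close copies, was called lower (-0.81 ± 0.15 SE, adjusted p = 0.0433). This is 3.03% of the list, against 4.08% of all genes.

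The 15 genes that the study names comprise genes picked from its polysome data on these samples, reference genes and genes from its other experiments, so the list is no independent evidence of direction. They included 5 called higher, against 2.88% of all genes, and none lower. These were SBP1, SCD6, SEC65, SHP1, a cofactor of Cdc48 (log2 P/T 0.68), and MAP2. The others were not called. Of these, the prohibitins PHB1 (0.53) and PHB2 (0.50), END3 (0.53), TLG2 (0.38), HLJ1 and the reference genes TAF10 (0.61) and ACT1 (0.32) had positive values. MAP1 is described above, and NAT1 and GCN4, the last also used as a reference there, had negative values.

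The mRNAs with upstream reading frames or other known cis control included no call among 29 tested (median -0.02). GCN4, whose upstream frames repress it in well-fed cells, had 794, 1169 and 1031 CPM in the polysomal libraries of cultures 1 to 3, against 2234, 1598 and 1418 CPM in their total libraries. Each culture was lower in polysomal mRNA and the pools did not overlap, with a log2 P/T of -0.80 ± 0.23 (SE, adjusted p = 0.0581). HAC1, whose unspliced mRNA is held back by its intron in the absence of stress, had 133, 187 and 144 polysomal CPM against 723, 249.9 and 189 total CPM, with a log2 P/T of -1.06 ± 0.38 (SE, adjusted p = 0.0891). Culture 1 held several times more HAC1 in its total library than the other cultures. CAD1, which has upstream frames, had a positive value (0.58), and CPA1, repressed by an arginine attenuator frame, was near 0 (-0.05).

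Untranslated RNAs were far lower in polysomal than in total mRNA. Of 86 small nuclear and nucleolar RNAs, counted with TLC1, SCR1, RPR1 and NME1, 59 were tested. Of these, 29 were called lower, against 4.08% of all genes, and none higher. All 59 lay below 0 (median -1.82, with -1.84, -1.82 and -1.69 in cultures 1 to 3). Among those at a mean log2 CPM of at least 3, SNR31 had 3.44, 5.82 and 3.10 polysomal CPM against 20.3, 12.9 and 30.3 total CPM (log2 P/T -2.32 ± 0.38 SE, adjusted p = 0.0377), SNR33 had 9.32, 12.2 and 8.50 polysomal CPM against 37.0, 26.1 and 51.5 total CPM (log2 P/T -1.89 ± 0.29 SE, adjusted p = 0.033), and SNR86 and SNR4 had log2 P/T of -1.82 and -1.69. All 4 guide the modification of rRNA. LSR1, the U2 spliceosomal RNA, had 4.02, 1.47 and 2.59 polysomal CPM against 10.2, 25.4 and 40.3 total CPM (log2 P/T -3.06 ± 0.46 SE, adjusted p = 0.033), with the log2 P/T of culture 1 nearest to 0. TLC1, the telomerase RNA, had 17.3, 23.2 and 20.3 polysomal CPM against 74.4, 52.6 and 47.6 total CPM (log2 P/T -1.51 ± 0.23 SE, adjusted p = 0.033). Most of these RNAs carry no long poly(A) tail when mature, and levels here are those that passed the enrichment. Of 299 tRNA features 35 were tested, of which 12 were called lower, against 4.08% of all genes, and none higher (median -1.99). The median of the mean log2 CPM was 0.045 for the tested small RNAs and -0.805 for the tested tRNA features. At such levels a gene can pass the filter through its total libraries alone. The counts of lower calls in these 2 classes are therefore no independent evidence of direction.

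Of 30 genes of the mitochondrial genome, which are translated by mitochondrial ribosomes, 6 were tested, with a median of the mean log2 CPM of 0.728. Genes at such levels can pass the filter through their total libraries alone. Of the 6, 2 were called lower, against 4.08% of all genes, and none higher. These were OLI1 (log2 P/T -2.79), a subunit of the ATP synthase at less than 1 CPM, and AI2 (-2.23), an intron-encoded maturase. The 21S rRNA of mitochondria, 21S_RRNA, had 7.68, 1.55 and 3.46 polysomal CPM against 5.70, 56.0 and 77.9 total CPM, so that culture 1 went against cultures 2 and 3, and its log2 P/T of -3.12 ± 0.96 (SE, adjusted p = 0.0665) was not called. Of 199 tested IDs without a RefSeq match, 9 were called lower (4.52%, near the 4.08% of all genes) and none higher, against 2.88% of all genes (median -0.76). YKL162C-A was the only one of these among the 5 lowest called features without a protein at a mean log2 CPM of at least 3, with 6.14, 6.71 and 4.54 polysomal CPM against 17.6, 16.4 and 15.2 total CPM (log2 P/T -1.51 ± 0.33 SE, adjusted p = 0.0451).

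Set against WT, no gene passed the test of a difference in P/T. The interaction of strain and pool called 0 of 6003 genes (0%, smallest adjusted p = 0.878, 187 genes at an unadjusted p of 0.05 or less, and 0 calls by DESeq2 with the block and 1 without it). In WT, the same model called 1950 genes, 1013 higher and 937 lower in polysomal mRNA. Of the 418 genes called in ΔES27Lb, 339 were called in the same direction in WT, which is 81.1% of the ΔES27Lb calls and 17.4% of the WT calls, and the lower count in ΔES27Lb is not a tested difference. The share was 91.3% for higher and 73.9% for lower calls in ΔES27Lb. Most genes named above had the same sign in both strains, as REA1 (-1.6 in ΔES27Lb and -2.38 in WT), SCC2 (-1.27 and -1.29), DID2 (0.91 and 0.83) and COX5A (0.90 and 0.88). WT culture 1 stood apart from the rest, with an SD of log2 P/T across genes of 1.05, against 0.63 and 0.60 in WT cultures 2 and 3. For this reason most WT values below are also given by culture. With WT culture 1 left out, the same test gave 62 genes, instead of 187, an unadjusted p of 0.05 or less for the difference between strains.

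The smallest unadjusted p-values for a difference from WT among the named genes were found for very short coding sequences. YLR146W-A and OST4 were named for their low log2 P/T in ΔES27Lb, and ATP15 as the lowest of its list there. That choice favours a difference below 0, so these p-values are no independent evidence of one. YLR146W-A had a log2 P/T of -1.59 in ΔES27Lb and 0.27 in WT, a difference of -1.86 ± 0.51 (SE, unadjusted p = 0.00397). Its values in WT cultures 1 to 3 were 1.29, -0.04 and -0.40. OST4 had -1.59 in ΔES27Lb and -0.33 in WT, a difference of -1.27 ± 0.38 (SE, unadjusted p = 0.00751). Its values in WT cultures 1 to 3 were 0.51, -0.76 and -0.70. ATP15 had -0.92 in ΔES27Lb and 0.23 in WT, a difference of -1.15 ± 0.36 (SE, unadjusted p = 0.00886). With 1.17, -0.39 and -0.07 in WT cultures 1 to 3, its positive WT value rested on WT culture 1. None passed adjustment over all genes, with adjusted p-values of 0.878 or more. Under 300 nucleotides the class medians were -0.54, 0.21 and -0.54 in ΔES27Lb cultures 1 to 3 and 1.02, -0.02 and 0.20 in WT cultures 1 to 3, so that ΔES27Lb culture 2 lay among the WT values. The difference between strains had an unadjusted p at or below 0.05 in 45 of these 232 genes, against 187 of all 6003 genes. This class was chosen after short genes had been seen among the lowest in ΔES27Lb, so the count is no independent evidence of a difference.

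The cytosolic ribosomal proteins also had a lower median in ΔES27Lb, with a log2 P/T of 0.44 in ΔES27Lb and 0.97 in WT. Their medians were 0.09, 0.85 and 0.42 in ΔES27Lb cultures 1 to 3, against 1.42, 0.72 and 0.87 in WT cultures 1 to 3, and the groups overlapped through ΔES27Lb culture 2 and WT culture 2. In WT 114 of the 137 genes were called higher, in ΔES27Lb 1, and the difference reached an unadjusted p of 0.05 for 31 genes and an adjusted p of 0.05 for none. Over all genes, 187 of 6003 reached that unadjusted p. The very long genes had medians of -0.86 in ΔES27Lb and -1.04 in WT, and the cultures overlapped (-0.60, -1.19 and -0.74 in ΔES27Lb and -1.16, -1.0 and -0.93 in WT). For proteasome genes the medians were 0.51 in ΔES27Lb and 0.45 in WT, and for decapping factors and repressors 0.26 and 0.21. SBP1 had 0.85 in ΔES27Lb and 0.28 in WT, a difference of 0.57 ± 0.27 (SE, unadjusted p = 0.0616). SHP1 had 0.68 in ΔES27Lb and 0.23 in WT, a difference of 0.45 ± 0.23 (SE, unadjusted p = 0.0816). Neither difference passed adjustment. In WT cultures 1 to 3 SBP1 had -0.20, 0.33 and 0.70, and SHP1 had -0.05, 0.31 and 0.44, with WT culture 1 lowest for both.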

How the data were processed

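The authors aligned reads from poly(A)-enriched stranded libraries to the strain BY4742 with HISAT2, after FastQC, counted them per gene with featureCounts and deposited 1 table of raw, unscaled counts for each library. Tool versions, the annotation, the use of strand and the handling of reads with several matches are not given in the sources used here, so overlapping, antisense and near-identical genes remain uncertain. Gene names, biotypes and coding sequences came from RefSeq R64 (S288C), which matched 6048 of 7126 IDs by locus tag and 114 by symbol, while 964 stayed unmatched. As the counts were made on another strain, no coordinates are given.

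Counts were analysed in R 4.3.3 with the quasi-likelihood test of edgeR 4.0.16 (TMM, default filter, 6003 genes). All 12 libraries entered 1 model with the culture (strain and replicate number) as a block and a pool effect per strain, which left 4 residual degrees of freedom. The block had a common coefficient of variation of 0.194, against 0.315 without it. P-values were adjusted by the Benjamini-Hochberg method over all genes tested, at a threshold of 0.05. Per-culture ratios used a prior count of 0.5. The pairing comes from the replicate numbers in the labels, which do not say that equal numbers are 1 culture. As a check, deviations of the libraries from their group means were correlated over 5152 genes, which gave 0.505, 0.203 and 0.725 for pools of the same number (mean 0.477), against a mean of at most 0.268 for the other pairings. Polysomal library 1 gave 0.2 with total library 2, about as much as pair 2 did. The study's methods name DESeq2 and state no block. DESeq2 1.42.0 was run as an alternative, as were other scalings and filters, the ΔES27Lb libraries alone, and leaving out each culture. The fits were tested on simulated data.

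The genes and lists were chosen with earlier results of these data known, from textbook roles. Named are called genes with the same sign in 3 of 3 cultures: the 12 highest and 12 lowest protein-coding genes and the 5 lowest without a protein at a mean log2 CPM of at least 3, and up to 3 called members per list and direction. Also named are the genes the study names, the N-terminal processing enzymes, genes under cis control, and the highest and lowest member of each list. Other members of lists were named after their values were seen, namely TRA1, DYN1, TOM1, UBR1, TOR1, TOR2, PRP8, BRR2, FAS1, FAS2, ACC1, RPN1, RPN6, PRE7, PRE9, PRE10, LSM1, GET3 and TLC1. Lists are described by counts and medians with no test of the list.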

Additional observations from a re-analysis of the deposited data

How the results depend on the processing

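The number of genes called in ΔES27Lb depended on the model. It was 418 as reported, 0 without the replicate block, 801 from the ΔES27Lb libraries alone with the block, 1349 with library size alone, 170 with at least 10 counts in every library, 1121 with DESeq2 and the block and 94 with DESeq2 without it, and it ranged from 0 to 1706 when single cultures were left out. With the size factors of DESeq2 in edgeR it was 509 and with no filter on low counts 425, of which 388 and 393 were among the 418 genes. Every one of the 418 genes that was tested kept its sign in each of these fits. Fits that leave out a ΔES27Lb culture hold 2 cultures of that strain, and the cause of the other shifts was not tested. For the difference between strains, 0 genes were called in every fit that held both strains, single cultures left out included (0 to 0), except DESeq2 without the block, which called 1.

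Library size alone moved the median of all genes to -0.35, and with it the medians of 7 of 29 lists changed sign, against at most 2 in each other fit. The 7 medians were then -0.25 for cytosolic aminoacyl-tRNA synthetases and for ER-to-Golgi transport, -0.028 for decapping factors and repressors, -0.077 for N-terminal processing enzymes, -0.049 for other cytosolic chaperones, -0.019 for the signal recognition particle and translocon and -0.043 for initiation factors. Relative to the median of all genes the last 5 stood at 0.32, 0.27, 0.30, 0.33 and 0.31, against 0.32, 0.27, 0.30, 0.33 and 0.31 with TMM. The depth of at least 15050764 counts per library limits only genes near 3 counts, which equal 0.159 to 0.199 CPM in ΔES27Lb.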

Other observations

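Genes with an intron in the coding sequence had a median log2 P/T of 0.14 in ΔES27Lb over 309 genes tested. Genes without an intron had -0.04 over 5380 genes. In the intron class 5 genes were called higher (1.62%) and 14 lower (4.53%), against 2.88% and 4.08% of all genes, so the lower share was near that of all genes. By culture the medians of the intron class were -0.02, 0.28 and 0.16 in cultures 1 to 3. Many of these genes encode ribosomal proteins.

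Of the 6003 genes tested, 36 (0.60%) had a log2 P/T of one sign in all 3 ΔES27Lb cultures and of the other sign in all 3 WT cultures, 12 of them positive and 24 negative in ΔES27Lb. None of the 36 passed the test of the difference between strains.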
